A study of Mus musculus with 16 samples.

Results

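Bank1, Blnk, Pik3ap1 and Dapp1 encode adaptor proteins of B cell receptor signalling. They were taken by name, each was represented by the 1 probe set annotated to it alone, and together they are 4 of the 19938 genes measured. RNA of mouse bone marrow was hybridised to 16 arrays, and levels are log2 probe set intensities. The arrays came from 6 leukemias of mice with 1 intact allele each of Bank1 and Pax5 (genotype Bank1+/- + Pax5+/-, here Bank1/Pax5 leukemia), 6 leukemias of Pax5+/- mice (here Pax5 leukemia) and 4 wild-type (WT) samples of pro-B and pre-B cells. All animals were kept in a conventional facility with exposure to common pathogens, and no other treatment is recorded. The Pax5 heterozygosity is shared by both leukemia groups. Both leukemia groups carry the tissue label total bone marrow, whereas the WT tissue label names the pro-B and pre-B fraction. The cell type field of the WT samples calls them leukemic, against their other labels, and the design text counts 3 WT mice where 4 WT arrays are given. The part of each gene that the targeted alleles lack, the ages and the strain are not stated in the labels, so it is unknown whether the Bank1 probe set lies inside the altered part of the allele.

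Adaptor proteins have no enzymatic activity and hold signalling enzymes and their substrates together. Blnk (also SLP-65) is phosphorylated by the kinase Syk and brings the kinase Btk to phospholipase C gamma 2, and in mouse pre-B cells it is required for normal maturation and acts as a tumour suppressor. Pik3ap1 (also BCAP) recruits phosphoinositide 3-kinase through its phosphorylated tyrosines, Dapp1 (also Bam32) binds the lipids that this kinase makes, and Bank1 is a scaffold that binds the Src family kinase Lyn and the inositol trisphosphate receptor.

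The 250 bases before the annotated start of each gene are shown as a description. They are RefSeq sequences of build GRCm38.p6, written 5' to 3' on the gene's own strand, which is the minus strand for all 4. The windows are chr3:136326067-136326316 for Bank1, chr19:40994222-40994471 for Blnk, chr19:41385103-41385352 for Pik3ap1 and chr3:137981550-137981799 for Dapp1. Capitals mark matches to the motifs described after the sequences.
Bank1: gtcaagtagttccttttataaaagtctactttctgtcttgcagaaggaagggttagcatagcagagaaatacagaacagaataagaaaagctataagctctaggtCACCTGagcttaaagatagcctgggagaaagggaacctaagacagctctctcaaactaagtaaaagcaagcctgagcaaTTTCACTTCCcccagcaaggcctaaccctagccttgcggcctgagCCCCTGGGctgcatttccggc
Blnk: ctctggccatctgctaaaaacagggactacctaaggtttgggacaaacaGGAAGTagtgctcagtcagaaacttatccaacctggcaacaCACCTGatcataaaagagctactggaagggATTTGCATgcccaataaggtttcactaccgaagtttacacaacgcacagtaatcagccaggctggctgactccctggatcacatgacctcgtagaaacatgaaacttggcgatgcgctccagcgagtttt
Pik3ap1: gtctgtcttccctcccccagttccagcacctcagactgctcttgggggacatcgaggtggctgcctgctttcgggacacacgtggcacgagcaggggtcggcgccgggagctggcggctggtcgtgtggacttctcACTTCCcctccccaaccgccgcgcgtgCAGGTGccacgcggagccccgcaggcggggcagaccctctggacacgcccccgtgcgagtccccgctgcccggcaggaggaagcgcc
Dapp1: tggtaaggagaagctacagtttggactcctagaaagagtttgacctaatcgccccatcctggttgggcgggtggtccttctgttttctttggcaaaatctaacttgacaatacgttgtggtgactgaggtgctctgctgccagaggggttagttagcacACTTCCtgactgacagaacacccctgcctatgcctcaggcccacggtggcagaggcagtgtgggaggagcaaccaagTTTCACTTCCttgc

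The motifs were chosen after the sequences had been seen and were searched on both strands. GGAAGT, a core bound by ETS factors such as PU.1, occurred in the windows of all 4 genes and in 19.7% of 32851 promoter windows of this length. The ETS-IRF composite, GGAA and then GAAA after a gap of 2 bases, bound by PU.1 with IRF4 or IRF8, occurred in the Bank1 and Dapp1 windows and in 2.30% of all windows, and in both genes it overlaps a GGAAGT match. The Bank1 composite began 66 bases before the start site and the Dapp1 composite 14 bases before it, both in antisense orientation. The octamer ATGCAAAT, a site of Oct factors, occurred in the Blnk window, 130 to 123 bases before the start, and in 1.60% of all windows. CAGGTG, an E-box of E2A, occurred in the Bank1, Blnk and Pik3ap1 windows and in 17.2% of all windows. CCCNNGGG, a form of the EBF1 site, occurred in the Bank1 window and in 11.8% of all windows. A match describes the letters in the window and is no measure of binding. The RefSeq order also places the genes in neighbouring pairs. Bank1 and Dapp1 lie on chromosome 3 with 7 protein-coding genes between them, and Blnk and Pik3ap1 on chromosome 19 with 4 between them (Dntt, Opalin, Tll2 and Tm9sf3).

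A pair of checks bears on every result below. The first is the cell content of the samples. The median level of 14 B lineage markers was 8.09 to 11.34 on Bank1/Pax5 arrays and 8.49 to 11.18 on Pax5 arrays, against 11.48 to 11.75 on WT arrays. Monocyte and macrophage markers had medians of 8.63 to 11.18 and 8.47 to 9.62 on Bank1/Pax5 and Pax5 arrays, against 6.61 to 6.75 on WT arrays. With the limma model described under processing, 10 and 8 of the 12 measured monocyte and macrophage markers rose over WT in Bank1/Pax5 and Pax5 leukemia, as did 5 and 4 of 6 megakaryocyte markers and 7 and 8 of 12 stromal and endothelial markers. In summed level, on the log2 scale, monocyte and macrophage markers were at 12.66 to 14.88 and 12.60 to 13.58, against 11.22 to 11.47 in WT, megakaryocyte markers at 12.88 to 14.51 and 12.45 to 14.22, against 9.50 to 9.63, and stromal and endothelial markers at 12.46 to 14.07 and 12.19 to 13.90, against 11.38 to 11.53. NK cell markers fell relative to WT, 4 and 6 of 9, and 3 of 9 rose in Bank1/Pax5 leukemia relative to Pax5 leukemia. On WT arrays, NK cell, dendritic cell, erythroid and neutrophil marker medians lay above 7.01, the median probe set level. NK cell markers had medians of 5.73 to 8.34, 5.48 to 5.59 and 7.76 to 8.85 on Bank1/Pax5, Pax5 and WT arrays. In the same order, dendritic cell markers had 6.63 to 9.62, 6.53 to 9.76 and 8.75 to 9.36. Erythroid markers had 6.72 to 10.60, 6.80 to 8.29 and 8.42 to 8.96. Neutrophil markers had 7.84 to 12.28, 7.05 to 11.70 and 7.05 to 9.47, and T cell markers 6.22 to 7.34, 5.74 to 6.44 and 6.65 to 6.99. The part of these cell types in the results was not tested beyond the fits with marker levels as a covariate. The non-B covariate is the mean of 8 list medians, some higher and some lower in the leukemias than in WT. It was 7.56 to 9.37 on Bank1/Pax5 arrays, 7.21 to 8.35 on Pax5 arrays and 7.46 to 7.97 on WT arrays. Because opposite differences offset each other in it, it cannot adjust for each cell type. In whole marrow, fewer B lineage cells and less RNA per cell cannot be told apart. The second check is the Pax5 gene itself, which was under 9 on Bank1/Pax5 arrays 1 and 5 (7.85 and 8.02) and on Pax5 array 3 (7.52), against 11.85 to 12.12 on WT arrays. Replicate correlations over all genes were 0.944 to 0.987, 0.968 to 0.982 and 0.992 to 0.995 in Bank1/Pax5, Pax5 and WT samples. The labels call the arrays of a group biological replicates, and the number of arrays limits the precision.

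Bank1 was the 1 adaptor called between the leukemias, and it was lower in Bank1/Pax5 leukemia. Its level on Bank1/Pax5 arrays was 7.26 at the lowest, 8.71 at the median and 9.52 at the highest, and its level on Pax5 arrays was 8.80, 10.30 and 11.09. The WT arrays had 9.17, 9.26, 9.0 and 9.23. The leukemia groups overlapped, with 4 of 6 Bank1/Pax5 arrays below every Pax5 array and arrays 1 and 3 reaching into the Pax5 range. Pax5 array 1, at 8.80, was the lowest Pax5 array, and the next was at 9.94. The means were 8.63 ± 0.78 in Bank1/Pax5 leukemia (SD, n = 6) and 10.18 ± 0.79 in Pax5 leukemia (SD, n = 6). Bank1 fell by 1.54 on the log2 scale in Bank1/Pax5 leukemia relative to Pax5 leukemia (SE 0.38, 95% interval -2.35 to -0.74, adjusted p = 0.0265), which is 2.91-fold lower. A 2-fold difference, 1 on the log2 scale, lies inside that interval. It was 1 of 4 adaptors called lower, where 5.00% of all genes were called lower, and none was called higher, where 1.71% were. None of the 4 had groups that did not overlap, against 1.87% of all genes lower and 0.833% higher. The adjusted p exceeded 0.05 without Bank1/Pax5 array 5 (0.0504) or Pax5 array 2 (0.0577), 4 (0.0573) or 5 (0.0579), with differences of -1.57, -1.36, -1.47 and -1.45, and over all alternatives it was 0.00883 to 0.111.

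Against WT, most Bank1 values lay below in Bank1/Pax5 leukemia and above in Pax5 leukemia. In Bank1/Pax5 leukemia, 4 of 6 arrays lay below all WT arrays and 1 above them, and the difference of -0.53 from WT did not pass the test (SE 0.42, 95% interval -1.43 to 0.37, adjusted p = 0.404). Without Bank1/Pax5 array 6, the lowest, it was -0.26. In Pax5 leukemia, 5 of 6 arrays lay above all WT arrays and 1 below them, and the difference was 1.01 (SE 0.42, 95% interval 0.11 to 1.91, adjusted p = 0.0964). Without Pax5 array 1 that difference was 1.28 with an adjusted p of 0.0189. The order of group means was therefore Pax5 leukemia, WT and Bank1/Pax5 leukemia. Neither difference from WT passed the test after adjustment over all genes. The 95% intervals are not adjusted over genes. The interval for Pax5 leukemia (0.11 to 1.91) held only differences above WT, and that for Bank1/Pax5 leukemia (-1.43 to 0.37) held both directions. Y-linked genes, with a mean level of 4.83 to 4.85 on all 4 WT arrays, were at 4.74 and 4.83 on 2 of 6 Bank1/Pax5 arrays and at 4.75 on 1 of 6 Pax5 arrays, and at 8.46 to 9.13 on the rest, so that most leukemia arrays and no WT array carried male RNA. With the Y-linked level as a covariate, the Bank1 difference was 0.07 for Bank1/Pax5 leukemia minus WT (adjusted p = 0.928) and 1.82 for Pax5 leukemia minus WT (adjusted p = 0.0219).

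**Figure D1:**
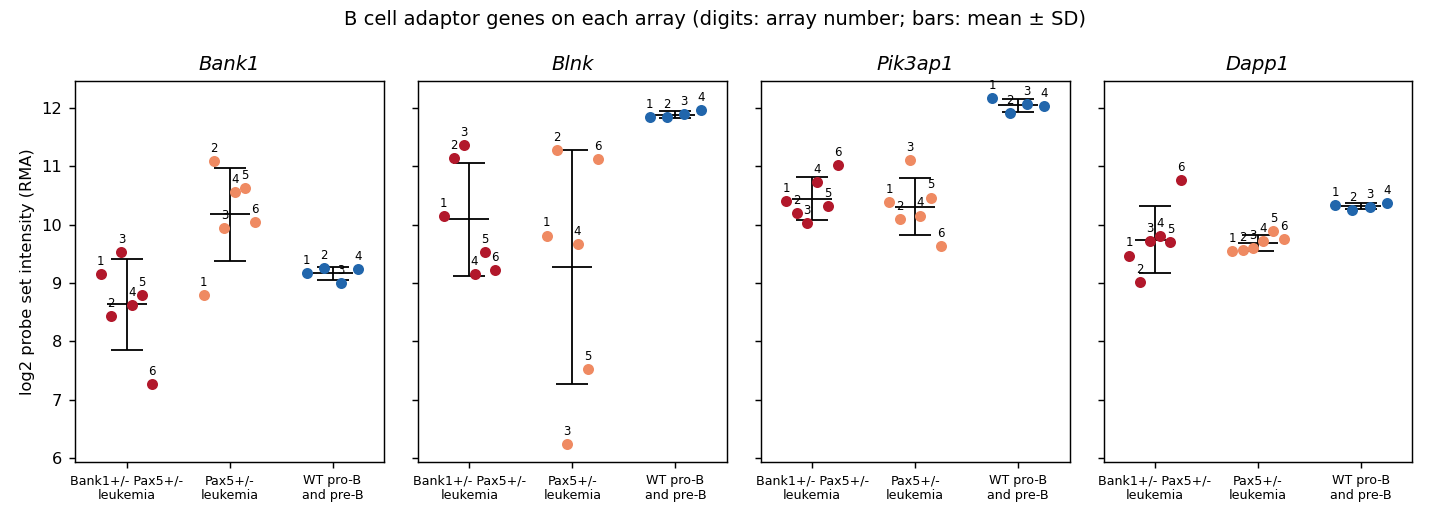
Log2 probe set intensity of the 4 adaptor genes on each array, in Bank1/Pax5 leukemia, Pax5 leukemia and WT samples from left to right in each panel; points are arrays with their number, and bars give the mean ± SD. Bank1 lies lowest in Bank1/Pax5 leukemia, and all 12 leukemia arrays lie below the 4 WT arrays for Pik3ap1 and Blnk.

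Blnk was lower than on every WT array on all 12 leukemia arrays, and it had the widest range of the 4 adaptors among them. Its level on Bank1/Pax5 arrays was 9.15 at the lowest, 9.85 at the median and 11.36 at the highest, and on Pax5 arrays 6.23, 9.74 and 11.28. The WT arrays had 11.84, 11.84, 11.90 and 11.96. Pax5 arrays 3 (6.23) and 5 (7.52) stood apart at the low end, array 3 under the median probe set level of 7.01, while Bank1/Pax5 arrays 2 and 3 and Pax5 arrays 2 and 6 stood closest to the WT level. The range over the 12 leukemia arrays was 5.13 log2, with the low end under that median level, against 0.12 log2 over the WT arrays. The SD in Pax5 leukemia, 2.01, was larger than that of 99.8% of all genes in the group, and that in Bank1/Pax5 leukemia, 0.97, larger than 96.0%. The WT SD of 0.06 was larger than that of 26.2% of genes.

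Blnk fell by 2.61 on the log2 scale in Pax5 leukemia relative to WT (SE 0.84, 95% interval -4.42 to -0.81, adjusted p = 0.037), which is 6.12-fold lower. The call was lost without Pax5 array 5 (-2.26, adjusted p = 0.0762) and without WT array 1, 2, 3 or 4 (adjusted p = 0.0755, 0.0693, 0.079 and 0.0879). In Bank1/Pax5 leukemia the difference from WT was -1.79 (SE 0.84, 95% interval -3.59 to 0.01) with an adjusted p of 0.154, although no Bank1/Pax5 array reached the WT range. The model gives all groups 1 spread, to which the Pax5 arrays contributed the largest SD for Blnk, and in a fit of Bank1/Pax5 and WT arrays alone the adjusted p was 0.0234. Between the leukemias the difference was 0.82 (SE 0.76, 95% interval -0.79 to 2.43, adjusted p = 0.546), so differences of more than 2-fold in favour of Bank1/Pax5 leukemia lie inside the interval. It was 0.21 without Pax5 array 3, 0.47 without Pax5 array 5 and 0.34 without the arrays low in Pax5 gene level, and 1.92 and 1.45 with the non-B and B lineage marker covariates (adjusted p = 0.229 and 0.0534). With the non-B marker covariate the Bank1/Pax5 difference from WT was -0.56 (adjusted p = 0.783).

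Pik3ap1 fell in both leukemias relative to WT. Its level on Bank1/Pax5 arrays was 10.02 at the lowest, 10.36 at the median and 11.02 at the highest, and on Pax5 arrays 9.63, 10.27 and 11.10. The WT arrays had 12.17, 11.91, 12.07 and 12.04, and no leukemia array reached them. In Bank1/Pax5 leukemia the difference from WT was -1.60 (SE 0.23, 95% interval -2.10 to -1.10, adjusted p = 0.000268), which is 3.03-fold lower. In Pax5 leukemia the difference from WT was -1.74 (SE 0.23, 95% interval -2.24 to -1.24, adjusted p = 0.000121), which is 3.34-fold lower. Both comparisons use the same WT arrays. Between the leukemias the difference was 0.14 (SE 0.21, 95% interval -0.31 to 0.59, adjusted p = 0.721). Both differences from WT passed under all 28 alternative fits, between -2.11 and -1.46 for Bank1/Pax5 leukemia and between -2.10 and -1.61 for Pax5 leukemia.

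Dapp1 had the narrowest spread of the 4 adaptors on Pax5 arrays, an SD of 0.13, and passed the test in no comparison. Its level on Bank1/Pax5 arrays was 9.02 at the lowest, 9.71 at the median and 10.76 at the highest, and on Pax5 arrays 9.55, 9.66 and 9.89. The WT arrays had 10.34, 10.26, 10.30 and 10.37. All 6 Pax5 arrays lay below the WT arrays, as did 5 of 6 Bank1/Pax5 arrays, whereas Bank1/Pax5 array 6 lay above them. The difference from WT was -0.57 in Bank1/Pax5 leukemia (SE 0.22, 95% interval -1.05 to -0.09, adjusted p = 0.0893) and -0.63 in Pax5 leukemia (SE 0.22, 95% interval -1.11 to -0.15, adjusted p = 0.0544). Without Bank1/Pax5 array 6 these were -0.78 (adjusted p = 0.00117) and -0.63 (adjusted p = 0.00291), and without Bank1/Pax5 array 2 the Pax5 difference had an adjusted p of 0.0241. Between the leukemias the difference was 0.06 (SE 0.20, 95% interval -0.37 to 0.49, adjusted p = 0.878), and -0.14 without array 6. That array also had the lowest Bank1 and the highest Pik3ap1 level of its group.

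Relative to WT, 1 of 4 adaptors (Pik3ap1) was called lower in Bank1/Pax5 leukemia, where 12.8% of all genes were, and none higher, where 6.80% were. Pik3ap1 and Blnk, 2 of 4, had Bank1/Pax5 arrays all below WT, against 12.3% of all genes, and none had them all above WT, against 7.35% of all genes. In Pax5 leukemia 2 of 4 (Pik3ap1 and Blnk) were called lower, where 13.8% of all genes were, and 3 of 4 had all arrays below WT, against 13.2% of all genes; none was called higher, where 9.53% were, and none had all arrays above WT, against 11.6%. The median difference over the 4 was -1.09 in Bank1/Pax5 leukemia, where that over all genes was -0.03, and -1.19 in Pax5 leukemia, where that over all genes was -0.05. Without the 3 leukemia arrays low in Pax5 gene level, the adaptors called lower were 0 for Bank1/Pax5 against Pax5 leukemia, 1 for Bank1/Pax5 leukemia against WT and 1 for Pax5 leukemia against WT.

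**Figure D2:**
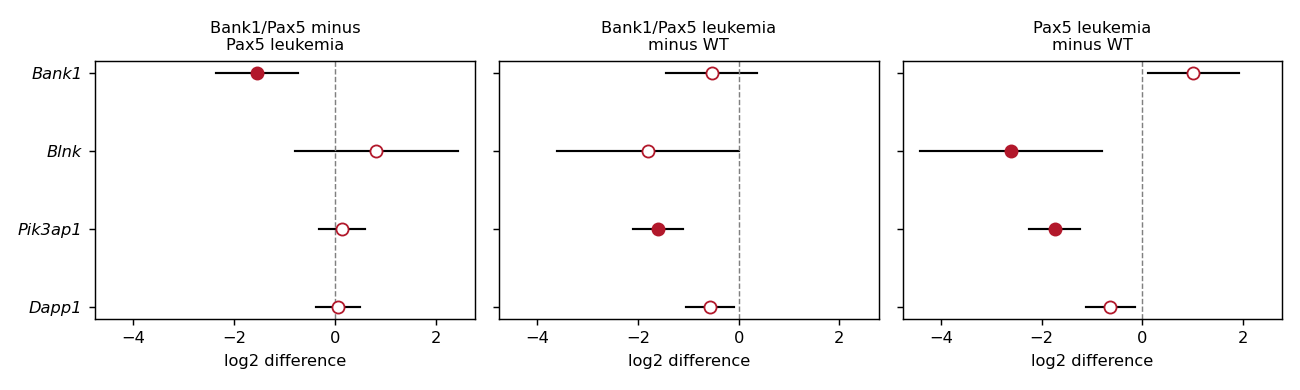
Log2 differences of the 4 adaptor genes in the 3 comparisons, with 95% intervals from the limma model over all 16 arrays; filled points have an adjusted p under 0.05. Filled points are Bank1 between the leukemias (-1.54), Pik3ap1 in both comparisons with WT (-1.60 and -1.74) and Blnk in Pax5 leukemia (-2.61).

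Whether Bank1 changed differently from the other adaptors was tested directly on the log2 difference of Bank1 minus each other adaptor within an array. This quantity shows unequal change and not which of the pair moved. There were 9 two-sided exact permutation tests, with a smallest possible p of 0.00216 between the leukemias and 0.00952 against WT. Between the leukemias, Bank1 minus Dapp1 averaged -1.11 ± 1.23 in Bank1/Pax5 leukemia and 0.49 ± 0.76 in Pax5 leukemia (exact p = 0.00866, adjusted 0.0214). Bank1 minus Pik3ap1 averaged -1.81 ± 1.10 and -0.13 ± 1.01 in Bank1/Pax5 and Pax5 leukemia (exact p = 0.0195, adjusted 0.0351). Bank1 minus Blnk averaged -1.46 ± 0.85 and 0.90 ± 2.08 in Bank1/Pax5 and Pax5 leukemia (exact p = 0.026, adjusted 0.0367). In each of these 3 tests, 3 of 6 Bank1/Pax5 arrays lay below all Pax5 arrays. The Pik3ap1 call was lost without Bank1/Pax5 array 2, 4 or 6 or Pax5 array 2, 4, 5 or 6 (adjusted exact p 0.0501 to 0.0584), and the Blnk call without Bank1/Pax5 array 2, 3 or 6 or Pax5 array 2, 3, 4 or 5 (0.0557 to 0.0668). The Dapp1 call held whichever single array was left out (0.0234 to 0.039).

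Against WT, all 6 Pax5 arrays lay above all WT arrays in Bank1 minus each of the other adaptors. The gap was 3.62 log2 for Blnk, 2.75 for Pik3ap1 and 1.64 for Dapp1, each with an adjusted p of 0.0214 by the exact permutation test. In Bank1/Pax5 leukemia, Bank1 minus Blnk was 1.26 log2 above WT (exact p = 0.0286, adjusted 0.0367, 5 of 6 arrays above all WT arrays), a call that was lost without any WT array, without Bank1/Pax5 array 1, 3, 4, 5 or 6, and, through the adjustment over 9 tests, without Pax5 array 2, 4 or 5 (adjusted p 0.0514 to 0.0918). Bank1 minus Pik3ap1 was 1.07 above WT (adjusted 0.107 by the exact test, and 0.0312 without Bank1/Pax5 array 6), and Bank1 minus Dapp1 was 0.04 above WT (adjusted 0.83 by the exact test).

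Among the leukemias, Pik3ap1 was high where Blnk was low. Over the 12 leukemia arrays, with each group's mean subtracted, Pearson's r was -0.87 (permutation p = 0.0001, adjusted 0.0018) and Spearman's rho -0.88 (permutation p = 0.00032, adjusted 0.00576), adjusted over 18 relations computed. Without the 2 arrays farthest from the median in Pik3ap1 r was -0.79. Within the groups it was -0.85 over 6 Bank1/Pax5 arrays and -0.90 over 6 Pax5 arrays. Pax5 array 3, for example, had the lowest Blnk level of all arrays and the highest Pik3ap1 level of the leukemias, while Pax5 array 6 had Blnk at 11.13 and the lowest Pik3ap1 level, 9.63. The WT arrays did not follow this, being highest for both genes.

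The B lineage marker level moved with the same pair. Its correlation with Blnk was r = 0.86 (permutation p = 0.00085, adjusted 0.00765; rho = 0.85, adjusted 0.0115), 0.82 without the 2 farthest arrays, 0.97 within Bank1/Pax5 leukemia and 0.89 within Pax5 leukemia. Its correlation with Pik3ap1 was r = -0.77 (permutation p = 0.00451, adjusted 0.0271; rho = -0.85, adjusted 0.0115), -0.64 without the 2 farthest arrays, -0.75 within Bank1/Pax5 leukemia and -0.80 within Pax5 leukemia. The non-B marker level had r = -0.54 with Blnk (adjusted permutation p = 0.162) and 0.36 with Pik3ap1 (adjusted 0.372). The Pax5 gene had r = 0.56 with Blnk (adjusted 0.24) and -0.44 with Pik3ap1 (adjusted 0.315), and none of these passed. With the B lineage marker level as a covariate, the Blnk difference from WT was 0.29 in Bank1/Pax5 leukemia (adjusted p = 0.808) and -1.15 in Pax5 leukemia (adjusted p = 0.122), so the Blnk call was lost.

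No relation passed for Bank1. Its r was 0.10 with B lineage markers, 0.03 with the mean of the 8 other cell type marker lists and -0.10 with the Pax5 gene, with adjusted permutation p of 0.864, 0.948 and 0.864. Its r with Pik3ap1, Blnk and Dapp1 was -0.45, 0.24 and -0.38, with adjusted permutation p of 0.315, 0.64 and 0.372. With the non-B marker level as a covariate, the Bank1 difference between the leukemias was -1.57, with an adjusted p of 0.111. Dapp1 passed with none of the 6 measures it was set against.

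**Figure D3:**
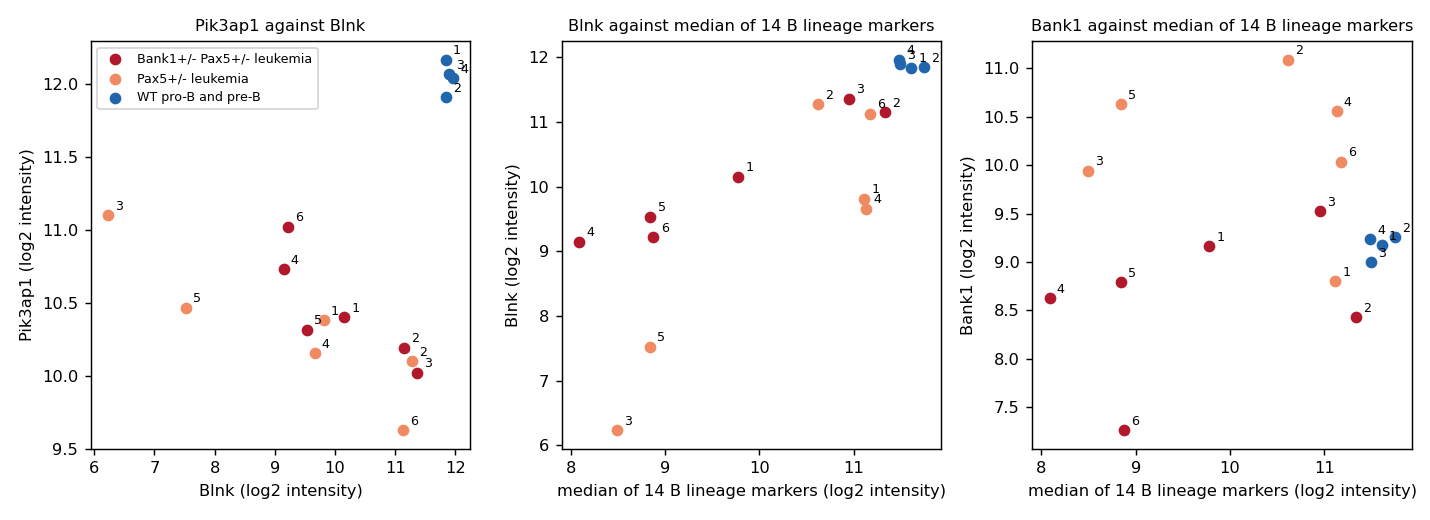
Log2 levels on each array of Pik3ap1 against Blnk (left), Blnk against the median of 14 B lineage markers (middle) and Bank1 against the same median (right); points are arrays with their number, coloured by group. Among the leukemia arrays Pik3ap1 is lower where Blnk is higher (r = -0.87) and Blnk follows the B lineage markers (r = 0.86), whereas Bank1 had r = 0.10 with them.

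The genes most like each adaptor over the 12 group-centred leukemia arrays, out of 9395 brighter genes searched, are given as a description. For Bank1 they were Timm44 (r = 0.85), Lpcat1 (0.85), Trmt1 (0.83), Uxs1 (0.80) and Tspan4 (0.79). Timm44, of the mitochondrial import motor, and Trmt1, a tRNA methyltransferase, fell in Bank1/Pax5 leukemia relative to Pax5 leukemia, by 0.37 (adjusted p = 0.00675) and 0.57 (adjusted p = 0.0259) on the log2 scale. For Blnk they were Chchd10 (0.95), Pde3b (0.94), Mmp11 (0.94), Akap12 (0.94) and Steap3 (0.94). For Pik3ap1 they were Cadm1 (0.93), Parp3 (0.93), Rnf166 (0.92), Use1 (0.92) and Btla (0.91), and for Dapp1 Pdk2 (0.94), Znfx1 (0.93), Vwa5a (0.92), Rab20 (0.92) and Prrg4 (0.92). Bank1/Pax5 array 6 had the highest Dapp1 level, and its part in these r was not tested. Pdk2 and Prrg4 rose in Bank1/Pax5 leukemia relative to Pax5 leukemia, by 0.49 (adjusted p = 0.026) and 1.70 (adjusted p = 0.0456). Dapp1 itself was not called there (0.06, adjusted p = 0.878), so a called gene on such a list is not particular to Bank1. For Bank1 the best r was lower than for the other 3 adaptors.

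The adaptors' partners in the pathway were taken from 5 lists, of which 80 of 87 genes were measured. Between the leukemias 1 rose and 6 fell, and these 7 of 80 are a share near the 6.70% of all genes that were called. The split was 3 and 2 with cyclic loess, 0 and 9 with median centring, 1 and 0 with the non-B marker covariate, 0 and 1 in a fit of the leukemia arrays alone and 0 and 2 with the replicate number as a block. The one that rose was the adaptor Grb2 (9.53 in Bank1/Pax5 leukemia and 9.29 in Pax5 leukemia, difference 0.24, SE 0.07, adjusted p = 0.0414). The 6 that fell were Csk, the kinase that restrains Src family kinases such as Bank1's partner Lyn (-0.51, SE 0.09, adjusted p = 0.00608), Plcg2, the phospholipase that Blnk engages (-0.54, SE 0.13, adjusted p = 0.022), the phosphoinositide 3-kinase subunits Pik3r2 (-0.36, adjusted p = 0.0324) and Pik3r6 (-0.74, adjusted p = 0.0341), the inositol trisphosphate receptor Itpr3 (-0.71, adjusted p = 0.0356) and Vav2, an exchange factor (-0.40, adjusted p = 0.0465). Without the 3 leukemias low in Pax5 gene level 0 rose and 3 fell. The median difference of the 80 was -0.16, where that of all genes was 0.02. With genes left out whose mean was under 7.01 in every group, the median over the rest was -0.08. Of these brighter genes 270 rose and 1061 fell.

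Against WT, 4 of the 80 partners rose and 27 fell in Bank1/Pax5 leukemia, where 6.80% of all genes rose and 12.8% fell (19.6% called). In Pax5 leukemia 8 rose and 19 fell, where 9.53% of all genes rose and 13.8% fell (23.3% called). In both, the count that rose is near the share of all genes. The medians were -0.24 and -0.16 in Bank1/Pax5 and Pax5 leukemia, where those of all genes were -0.03 and -0.05. With genes under 7.01 in every group mean left out, the all-gene medians were -0.07 and 0.0033. Among the 26 other adaptors, 1 rose and 6 fell in Bank1/Pax5 leukemia, beside 6.80% and 12.8% of all genes. In Pax5 leukemia 3 of them rose and 6 fell, beside 9.53% and 13.8% of all genes. The counts that rose are near the shares of all genes. Lat2, a membrane adaptor of B and myeloid cells, averaged 10.05 in Bank1/Pax5 leukemia and 10.04 in Pax5 leukemia, against 8.78 in WT (differences 1.27 and 1.26, adjusted p = 0.00432 and 0.0042). Among 9 proximal kinases and phosphatases, 0 rose and 3 fell in Bank1/Pax5 leukemia, beside 6.80% and 12.8% of all genes. In Pax5 leukemia 1 rose and 2 fell, beside 9.53% and 13.8%. Of this list, Syk, which phosphorylates Blnk, averaged 10.43 in Bank1/Pax5 leukemia and 10.50 in Pax5 leukemia, against 11.94 in WT (-1.50 and -1.44, adjusted p = 0.000165 and 0.000218). Btk, which Blnk brings to its substrate, fell in Bank1/Pax5 leukemia (-0.52, adjusted p = 0.014), and its difference in Pax5 leukemia was -0.17 (adjusted p = 0.38). Between the leukemias the Btk difference was -0.35 and was not called (adjusted p = 0.0982). Plcg2 rose in Pax5 leukemia (0.48, adjusted p = 0.024), and its difference in Bank1/Pax5 leukemia was -0.06 (adjusted p = 0.798).

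The lipid branch, in which Pik3ap1 and Dapp1 act, held 16 measured enzymes. Relative to WT, 1 rose and 6 fell in Bank1/Pax5 leukemia, where 6.80% of all genes rose and 12.8% fell. In Pax5 leukemia 2 rose and 4 fell, where 9.53% of all genes rose and 13.8% fell, so the count that rose is near the share of all genes. Pik3ca, a catalytic subunit, fell by 0.82 and 0.75 on the log2 scale in Bank1/Pax5 and Pax5 leukemia (adjusted p = 5.72e-05 and 0.000103), Pdpk1, the kinase upstream of Akt, by 0.61 and 0.44 (adjusted p = 9.7e-06 and 0.000121), and Akt2 by 0.43 and 0.49 (adjusted p = 0.000388 and 0.000118). Pik3r6, a regulatory subunit of the gamma form, averaged 9.20 and 9.94 in Bank1/Pax5 and Pax5 leukemia, against 7.39 in WT (1.81 and 2.55, adjusted p = 5.06e-05 and 2.63e-06). Pik3r1 and Pik3cd, a regulatory and a catalytic subunit that signal below the B cell receptor, had differences from WT of -0.09 and -0.12 in Bank1/Pax5 leukemia (adjusted p = 0.603 and 0.795) and of -0.14 and 0.29 in Pax5 leukemia (adjusted p = 0.387 and 0.47). Plekha2, which like Dapp1 binds phosphoinositide 3-kinase lipids, averaged 10.45 and 10.61 in Bank1/Pax5 and Pax5 leukemia, against 12.27 in WT (-1.82 and -1.66, adjusted p = 0.000281 and 0.000522).

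Further down, 2 of 18 effectors rose and 9 fell relative to WT in Bank1/Pax5 leukemia, beside the same 6.80% and 12.8% of all genes, and without the arrays low in Pax5 gene level 0 rose and 8 fell. In Pax5 leukemia 1 of 18 rose and 6 fell, beside 9.53% and 13.8% of all genes. Traf6, a ligase of Toll-like receptor signalling, averaged 9.57 and 9.76 in Bank1/Pax5 and Pax5 leukemia, against 10.88 in WT (-1.31 and -1.12, adjusted p = 4.09e-06 and 1.28e-05). Myd88, the adaptor of the same receptors, rose by 0.58 in Bank1/Pax5 leukemia (adjusted p = 0.0482), and its difference in Pax5 leukemia was -0.02 (adjusted p = 0.959). Between the leukemias the Myd88 difference was 0.60 and was not called (adjusted p = 0.0529). Vav3 rose by 0.69 and 0.80 in Bank1/Pax5 and Pax5 leukemia (adjusted p = 0.026 and 0.0105). Itpr2, of the receptor family that Bank1 binds, fell by 0.88 and 0.77 (adjusted p = 0.000387 and 0.000994). Among 11 receptor and coreceptor genes, 0 rose and 3 fell in Bank1/Pax5 leukemia (Cd72, Cd79b and Vpreb3), beside 6.80% and 12.8% of all genes, and 1 fell without the arrays low in Pax5 gene level. In Pax5 leukemia Cd81, a tetraspanin, rose (0.86, adjusted p = 0.00337) and Cd72 fell. That is 1 of 11 in each direction, near the 9.53% and 13.8% of all genes. Syk, Btk, Itpr2, Itpr3, Vav2, Plekha2, Pik3r1, Pik3cd, Cd72, Cd79b and Vpreb3 were chosen for naming after their values had been seen.

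**Figure D4:**
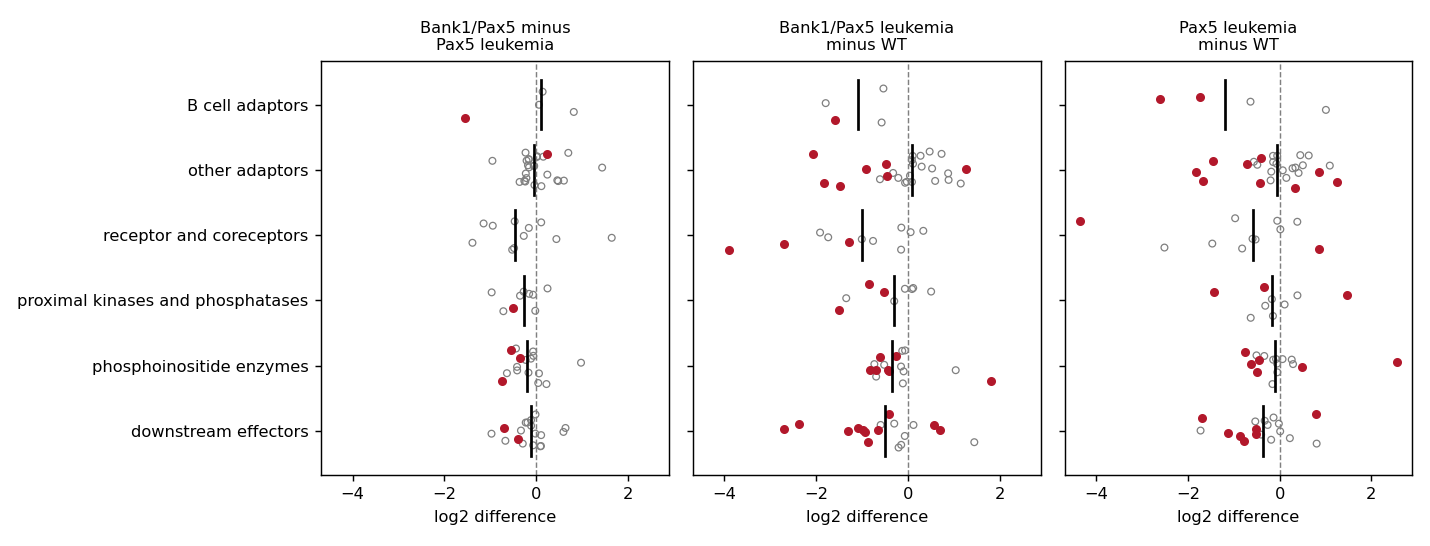
Log2 differences of the 4 adaptors and of the 80 measured genes of 5 B cell receptor pathway lists in the 3 comparisons; each point is a gene, filled where its adjusted p was under 0.05, and the black line is the list's median. Bank1 (-1.54) is the lowest filled point between the leukemias, and most filled points against WT lie below 0 (27 of 31 list genes in Bank1/Pax5 leukemia and 19 of 27 in Pax5 leukemia). Of all genes called against WT, 2543 of 3899 were lower in Bank1/Pax5 leukemia and 2754 of 4655 in Pax5 leukemia.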

How the data were processed

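Total RNA from 16 mouse bone marrow samples was biotin labelled and hybridised. Per the submitters' processing notes, the authors used RMA in the oligo package, versions not given; the deposited values are log2 intensities and were used unscaled. Of 35556 probe sets, 21789 named 1 gene in GEO's platform annotation, 1621 several and 12146 none. Symbols were updated through gene records (91 had none current), and the brightest probe set was kept for 999 genes, leaving 19938. All 4 adaptors were above 7.01, the median probe set level, in every group mean.

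One limma 3.58.1 model (R 4.3.3) with 3 group means was fitted to all 16 arrays with eBayes. A gene was called where its two-sided p, adjusted by Benjamini-Hochberg over all genes, was under 0.05. Exact permutation tests used scipy 1.17.1, and correlations 100000 permutations within groups. The level of a marker list is the median of its genes. Simulated data were used to test the scripts. The adaptors and lists were chosen with earlier results of these data known. Partners named are the up to 4 called genes with the smallest p in each direction per comparison, plus those said to be chosen later. Similar genes are the 5 with the highest r. Alternatives changed the probe set rule, dim-gene filter, scaling, moderation, weights, arrays and covariates. The covariates of Y-linked and B lineage genes, and leaving out arrays low in Pax5, were chosen with results known.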

Additional observations from a re-analysis of the deposited data

Results flagged for a closer look

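Bank1 differed between the leukemias relative to the shared WT arrays, by -1.54 log2 in Bank1/Pax5 minus Pax5 leukemia (limma adjusted p = 0.0265). Of 42 groups of arrays examined for a value far from the others, 3 had one, and chance alone gives about 1 in 20. The Pax5 gene was at 7.52 on Pax5 array 3, where the other 5 Pax5 arrays had 11.14 to 12.21. The same array, which had the lowest Blnk level of the series, had a dendritic cell marker median of 9.76, where the other Pax5 arrays had 6.53 to 7.22. The erythroid marker median was 8.29 on Pax5 array 4, where the others had 6.80 to 7.33.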

How the results depend on the processing

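The Pik3ap1 differences from WT kept their direction and call in all 28 alternatives, with adjusted p of 8.81e-06 to 0.00708 in Bank1/Pax5 leukemia and 2.02e-06 to 0.00397 in Pax5 leukemia. The causes of the changes listed here were not tested. Replicate numbers did not pair the samples: deviations of same-numbered Bank1/Pax5 and Pax5 arrays correlated at -0.38 to 0.12, those of Bank1/Pax5 and WT arrays at -0.13 to 0.32 and those of Pax5 and WT arrays at -0.28 to 0.20, and 0 of 6 Bank1/Pax5 arrays correlated best with their own number in Pax5 leukemia. With the replicate number as a block, the differences were -1.54 for Bank1 between leukemias (adjusted p = 0.0609), -2.45 for Blnk in Pax5 leukemia minus WT (0.103), and -0.73 and -0.79 for Dapp1 in Bank1/Pax5 and Pax5 leukemia minus WT (0.0336 and 0.0208), with 696 genes called between leukemias and 2542 for Bank1/Pax5 leukemia minus WT. Bank1 between leukemias also missed the threshold in a fit of those groups alone (-1.54, 0.0815), with the non-B marker covariate (-1.57, 0.111) and without arrays low in Pax5 (-1.76, 0.0662). Without single arrays it was -1.82 to -1.27. Bank1 in Pax5 leukemia minus WT passed with array weights (1.13, 0.00644) and the Y-linked covariate (1.82, 0.0219) and was 0.83 to 1.28 without single arrays; in Bank1/Pax5 leukemia minus WT it turned to 0.0745 with the Y-linked covariate. Blnk in Pax5 leukemia minus WT missed the threshold with those groups alone (-2.61, 0.059), the Y-linked covariate (-1.45, 0.372), the B lineage covariate (-1.15, 0.122) and without arrays low in Pax5 (-2.005, 0.0687), and was -3.01 to -2.005 without single arrays. Blnk in Bank1/Pax5 leukemia minus WT passed with those groups alone (-1.79, 0.0234) and turned to 0.29 with the B lineage covariate. Dapp1 in Pax5 leukemia minus WT passed with dim genes removed (-0.63, 0.0394), median centring (-0.67, 0.0345), array weights (-0.61, 0.00476), those groups alone (-0.63, 0.00022), the non-B covariate (-0.66, 0.0409) and the B lineage covariate (-0.84, 0.0208), and was -0.68 to -0.61 without single arrays. Dapp1 in Bank1/Pax5 leukemia minus WT passed with median centring (-0.67, 0.0314), array weights (-0.59, 0.0099) and the B lineage covariate (-0.86, 0.0454), and was -0.78 to -0.43 without single arrays. Between leukemias, Pik3ap1 and Dapp1 turned to -0.0606 and -0.11 with the non-B covariate and to -0.0114 and -0.0243 with the B lineage covariate, and Dapp1 was -0.14 to 0.21 without single arrays.

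Bank1 minus Pik3ap1, Blnk and Dapp1 between leukemias were -2.11, -2.10 and -1.89 without arrays low in Pax5, each with an adjusted exact p of 0.0714, and Bank1 minus Blnk and Dapp1 in Bank1/Pax5 leukemia minus WT were 0.96 (0.11) and -0.21. Without single arrays, Bank1 minus Pik3ap1 was -1.97 to -1.30 between leukemias and 0.80 to 1.46 in Bank1/Pax5 leukemia minus WT, Bank1 minus Blnk -2.76 to -1.80 and 1.07 to 1.51, and Bank1 minus Dapp1 -0.15 to 0.52 in Bank1/Pax5 leukemia minus WT. Genes called numbered 1336 between leukemias, 3899 for Bank1/Pax5 leukemia minus WT and 4655 for Pax5 leukemia minus WT. Between leukemias they numbered 446 with those groups alone, 361 with the non-B covariate, 659 without arrays low in Pax5 and 725 to 1742 without single arrays. For Bank1/Pax5 leukemia minus WT they numbered 6416 with median centring, 6486 with array weights, 2417 with the non-B covariate and 2394 with the B lineage covariate. For Pax5 leukemia minus WT they numbered 8104 with array weights and 3072 to 5560 without single arrays. The split of higher and lower calls was 340 and 996 between leukemias (451 and 588 with cyclic loess, 167 and 1185 with median centring), 1356 and 2543 for Bank1/Pax5 leukemia minus WT (2034 and 2012, 1086 and 5330) and 1901 and 2754 for Pax5 leukemia minus WT (2253 and 2225 with cyclic loess). Pathway genes called numbered 1 to 10, 16 to 40 and 17 to 38 over the alternatives of these 3 comparisons.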
